A study of Homo sapiens with 6 samples.

Results

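The genes of the T-cell receptor complex and its signalling chain were followed in RPMI-8402 cells. This human leukaemia line of the T lineage was established long ago. The cells were transduced with a control, with a short hairpin RNA (shRNA) named shGATA3 or with one named shTCF1 (TCF1 is the protein of TCF7). The set held 47 genes, out of 19699 genes that the probes of the custom 1-colour array could be named for, and was drawn up by role: the receptor complex, the coreceptors, other surface receptors, the CD1 family, kinases and phosphatases, adaptors, downstream enzymes with the NFAT factors, and inhibitors with a lineage regulator. Each gene was represented by its probe with the highest mean intensity. By the study's methods the control and GATA3 vectors were lentiviruses with an EGFP marker, and transduced cells were sorted by marker 48 h after transduction. Each of the 3 groups held 2 arrays. Each group was thus 1 cell line under 1 construct name. The study's methods name a single shRNA for GATA3 and describe no vector for the TCF7 shRNA, so its number of constructs is not given there.

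The receptor of most T cells is a pair of variable chains carried by the CD3 chains and the zeta chain CD247, whose tails are phosphorylated by the kinase LCK when the receptor is bound. The kinase ZAP70 then docks on them and phosphorylates the adaptors LAT and SLP-76 (LCP2), on which phospholipase C gamma, RASGRP1 and the calcium, Ras and NF-kB branches depend. In the thymus a precursor of this receptor, formed with the pre-T-cell receptor alpha chain PTCRA, is the checkpoint at which the chain is first used, and many T-cell leukaemia lines are arrested near that stage.

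On the 6 arrays between 51.0% and 56.2% of probes were well above background, the mark that the scanner software gives to a spot clearly brighter than its surroundings, and 0 spots were saturated. Before normalization the 75th percentile of intensity on the control arrays was 1.59 and 1.62 times that on the arrays labelled shGATA3 and shTCF1, and the control arrays lay in 1 column of the slide while the 4 shRNA arrays lay in the other, so that position on the slide and the control group cannot be told apart. The probe of GATA3 read 9.54 and 9.56 (normalized log2 intensity) on the control arrays, 9.46 and 9.55 on the shGATA3-labelled arrays and 9.76 and 9.90 on the shTCF1 arrays, so the targeted transcript was not lower under its shRNA (log2 difference -0.05 ± 0.105 SE, adjusted p = 0.795, limma) and that group is called by its label throughout. The probe of TCF7 read 13.96 and 13.91 in the control, 14.26 and 14.27 on the shGATA3-labelled arrays and 12.58 and 12.68 on the shTCF1 arrays, and fell by 1.31 on the log2 scale under shTCF1 (adjusted p = 0.00393). Of the T-lineage markers CD3E, CD7, CD5 and CD2, all 4 cleared the background on each of the 6 arrays. Of 14 measured markers of natural killer, B and myeloid cells, 8 were tested and the rest were not above the background filter, among them KLRD1, KLRF1, FCGR3A, CD22 and CD33 on 0 of 6 arrays. Their part in the results was not tested. In RNA from a bulk of cells, fewer cells with a transcript and less of it per cell cannot be told apart.

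All 47 genes had a probe. Of these, 43 passed the filter, which asked for a group whose arrays were both well above background, 39 were above it on each of the 6 arrays, and 4 (CD69, CD1C, CD1E and THEMIS) were below it on every array and were not tested. With the shGATA3-labelled arrays against control, 6 of the 43 genes were called at an adjusted p under 0.05, or 14.0%, beside 6.93% of the 14481 named genes tested. CD1B, PTPN6 and LAT were higher and RASGRP1, CD2 and CD28 were lower (2.77% and 4.16% of all named genes were called in these directions). With shTCF1 against control 12 were called, or 27.9%, beside 16.3% of all named genes, and 9 of these were lower (CD2, RASGRP1, LAT, PTPN22, GRAP2, CD6, PLCG1, LCP2 and CD1B, the last with both groups below background and so with no measured fold) and 3 higher (CD4, CD3G and PTPN6), directions in which 10% and 6.25% of all named genes were called. Between the shGATA3-labelled arrays and shTCF1 8 were called, or 18.6%, beside 6.6% of all named genes: CD1B, LAT, CD2, CD1A, RASGRP1, UBASH3A and PTPN22 were higher on the shGATA3-labelled arrays and CD28 was lower, beside 3.78% and 2.82%. Of the 39 genes well above background everywhere, 5, 11 and 6 were called in the 3 comparisons (12.8%, 28.2% and 15.4%, beside 6.52%, 16.0% and 6.02% of the 13485 named genes of that kind). No test of the set as a whole was made, and both comparisons with control used the same 2 control arrays. The genes were chosen with earlier results of these data known, so the shares beside those of all named genes are descriptive only.

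The set did not shift one way. Its median log2 difference was -0.03 with the shGATA3-labelled arrays (all named genes -0.03), -0.09 with shTCF1 (all named genes -0.05) and 0.11 between them (all named genes 0.0035), and 20, 18 and 24 of the 43 values were positive. The size of the differences, whatever their sign, had a median of 0.35 with the shGATA3-labelled arrays, beside 0.19 over all named genes, 0.25 beside 0.23 with shTCF1, and 0.34 beside 0.17 between the shRNA groups. Groups did not overlap for 35 of 43 genes with the shGATA3-labelled arrays (81.4%, beside 63% of all named genes), for 28 with shTCF1 (65.1%, beside 69.2%) and for 32 between them (74.4%, beside 53.4%). In all, 15 genes were called in at least 1 comparison, 4 in all 3 (LAT, CD2, RASGRP1 and CD1B, that of CD1B between control and shTCF1 being among arrays below background), 3 in 2 of them (PTPN22, PTPN6 and CD28), and 28 tested genes in none. Leaving out any 1 array kept 1 of the 6 calls, 5 of the 12 and 3 of the 8 in every such fit, as given with each gene below. With 75th percentile scaling the calls split into 3 higher and 1 lower on the shGATA3-labelled arrays and 4 higher and 7 lower with shTCF1. Of all tested probes 5.81% and 15.6% were then called. In the deposited log2 table, in which the column named control replicate 2 followed no array, 0 genes were called and CD2 and RASGRP1 turned to 2.69 and 1.63 on the shGATA3-labelled arrays, and CD2, RASGRP1, GRAP2, LCP2 and PLCG1 to 0.85, 0.74, 0.80, 2.61 and 1.47 with shTCF1. With that column left out 0 called genes turned, and 3 calls remained between the shRNA groups.

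**Figure D1:**
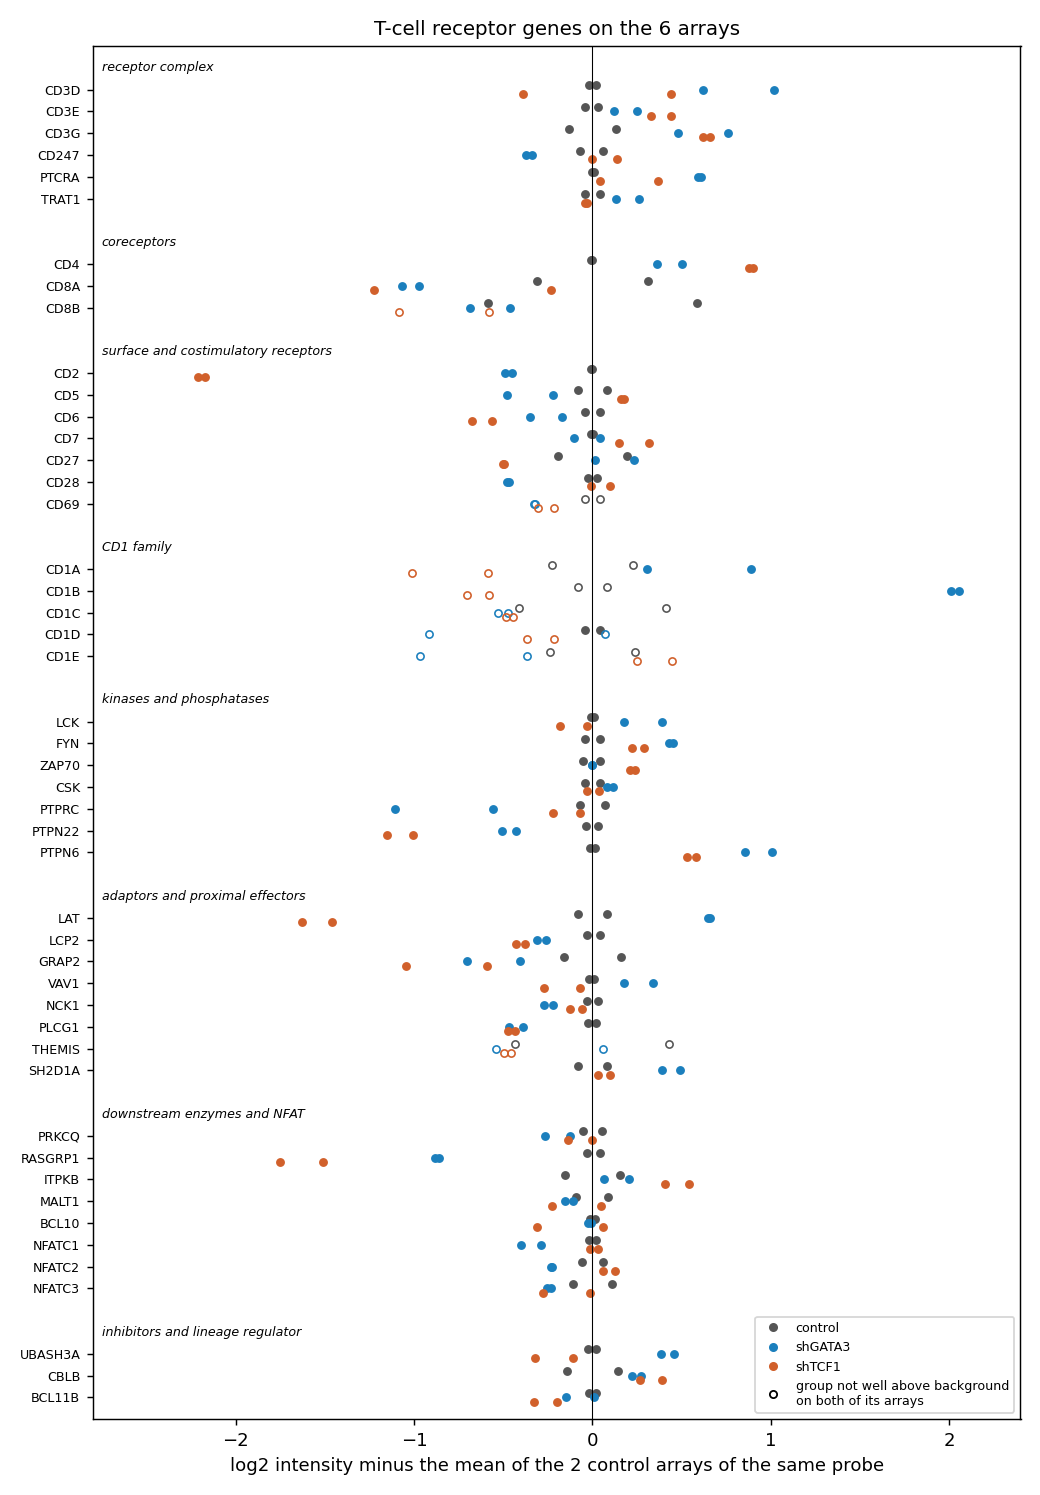
Normalized log2 intensity of each of the 47 genes on each of the 6 arrays, drawn as the difference from the mean of the 2 control arrays of the same probe (x axis) and grouped by role. Filled points belong to a group that was well above background on both of its arrays, open points to one that was not. CD2, LAT and RASGRP1 lie farthest to the left on the shTCF1 arrays, and CD1B farthest to the right on the shGATA3-labelled arrays.

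GATA3 and TCF1 bind short DNA motifs, and the promoter sequences of the genes that moved are given because the shRNAs were directed at these factors. In the RefSeq promoter table of GRCh38.p14, 37 of the 47 genes had an entry, and CD3E, CD3G, CD4, CD8B, CD5, CD6, CD7, CD69, CD1B and UBASH3A had none. The 250 bases before each start were searched on both strands for GATA motifs (AGATAA, also with a first letter T or a last letter G, or with both) and for TCF/LEF motifs (CTTTGT, also with a last letter A), and matches of both kinds can overlap, since the one can end with the letters TGA and the other begin with them. A GATA motif was found in 9 of the 37 (24.3%), beside 22.3% of 35116 promoters, and a TCF/LEF motif in 10 of the 37 (27.0%), beside 22.8%. A match is only a match of letters. The 6 sequences below belong to the genes called in all comparisons that had an entry (LAT, CD2, RASGRP1) and to the called genes with a match (GRAP2, PLCG1, CD1A), each 5′ to 3′ on the strand of the gene, with matches in capitals.
LAT: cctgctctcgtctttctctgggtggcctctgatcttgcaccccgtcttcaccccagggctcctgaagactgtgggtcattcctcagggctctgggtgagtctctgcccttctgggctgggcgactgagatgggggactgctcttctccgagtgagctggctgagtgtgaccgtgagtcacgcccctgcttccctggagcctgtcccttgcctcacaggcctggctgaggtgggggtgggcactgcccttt
CD2: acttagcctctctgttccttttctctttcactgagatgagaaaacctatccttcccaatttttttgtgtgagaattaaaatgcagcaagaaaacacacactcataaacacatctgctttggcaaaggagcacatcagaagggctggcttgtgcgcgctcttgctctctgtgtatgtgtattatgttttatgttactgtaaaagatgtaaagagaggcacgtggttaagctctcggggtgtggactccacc
RASGRP1: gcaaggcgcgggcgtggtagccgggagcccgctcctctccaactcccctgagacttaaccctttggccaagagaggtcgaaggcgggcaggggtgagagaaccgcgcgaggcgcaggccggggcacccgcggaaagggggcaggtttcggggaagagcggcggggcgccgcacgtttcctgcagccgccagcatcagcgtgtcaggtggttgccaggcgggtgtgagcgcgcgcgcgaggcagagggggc
GRAP2: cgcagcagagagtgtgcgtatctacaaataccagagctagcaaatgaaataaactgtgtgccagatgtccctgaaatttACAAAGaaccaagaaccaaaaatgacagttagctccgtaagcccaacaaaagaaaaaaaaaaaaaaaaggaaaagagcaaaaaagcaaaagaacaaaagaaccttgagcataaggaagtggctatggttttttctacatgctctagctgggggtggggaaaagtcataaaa
PLCG1: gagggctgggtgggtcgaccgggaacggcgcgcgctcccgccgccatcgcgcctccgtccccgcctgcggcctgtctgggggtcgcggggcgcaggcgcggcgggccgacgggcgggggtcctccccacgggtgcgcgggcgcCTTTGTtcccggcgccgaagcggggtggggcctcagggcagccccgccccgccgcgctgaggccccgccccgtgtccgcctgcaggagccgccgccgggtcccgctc
CD1A: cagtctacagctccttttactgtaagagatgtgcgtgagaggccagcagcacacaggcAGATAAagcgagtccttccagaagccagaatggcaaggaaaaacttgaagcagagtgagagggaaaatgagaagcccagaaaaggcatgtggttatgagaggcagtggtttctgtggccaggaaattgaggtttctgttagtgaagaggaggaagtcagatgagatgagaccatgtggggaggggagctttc
They lie at chr16:28984553-28984802 (LAT, plus strand), chr1:116754180-116754429 (CD2, plus strand), chr15:38564815-38565064 (RASGRP1, minus strand), chr22:39926354-39926603 (GRAP2, plus strand), chr20:41137293-41137542 (PLCG1, plus strand) and chr1:158248086-158248335 (CD1A, plus strand). The matches are a TCF/LEF motif on the opposite strand 171 to 166 bases before the start of GRAP2, a TCF/LEF motif 107 to 102 bases before that of PLCG1 and a GATA motif 192 to 187 bases before that of CD1A. The windows of LAT, CD2 and RASGRP1 held neither set of letters.

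In the receptor complex CD3G alone was called. CD3G, a chain of the CD3 module that couples the receptor to the cell, rose under shTCF1: it read 12.97 and 13.23 in the control, 13.86 and 13.58 on the shGATA3-labelled arrays and 13.72 and 13.76 on the shTCF1 arrays. Both shRNA groups lay above both control arrays. The log2 difference was 0.63 ± 0.145 (SE) with shTCF1 (adjusted p = 0.037) and 0.62 ± 0.145 with the shGATA3-labelled arrays (adjusted p = 0.062), and the call with shTCF1 was lost without any 1 of the control or shTCF1 arrays (adjusted p up to 0.172). CD3D, its neighbour in the CD3 module, read 15.11 and 15.15 in the control, 15.75 and 16.15 on the shGATA3-labelled arrays and 15.57 and 14.74 on the shTCF1 arrays. The shTCF1 arrays lay on either side of the control, and no comparison of CD3D was called (0.81 ± 0.28 with the shGATA3-labelled arrays, adjusted p = 0.138).

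CD3E, the third CD3 chain, read 10.07 and 10.14 in the control, 10.36 and 10.23 on the shGATA3-labelled arrays and 10.44 and 10.55 on the shTCF1 arrays. The groups did not overlap, with shTCF1 highest, but the difference of 0.38 ± 0.11 missed the threshold (adjusted p = 0.0597). CD247, the zeta chain that carries most of the phosphorylation sites, went the other way: 10.44 and 10.57 in the control, 10.17 and 10.14 on the shGATA3-labelled arrays, 10.51 and 10.65 on the shTCF1 arrays. Its value on the shGATA3-labelled arrays was below the rest (-0.35 ± 0.11 against control, adjusted p = 0.113). PTCRA read 12.22 and 12.23 in the control, 12.81 and 12.83 on the shGATA3-labelled arrays and 12.26 and 12.59 on the shTCF1 arrays. All 4 shRNA arrays were above the control arrays, by 0.60 ± 0.13 (adjusted p = 0.0554) and 0.20 ± 0.13 (adjusted p = 0.325). TRAT1, a membrane adaptor that associates with the receptor, differed from control by 0.20 and -0.03 and was not called.

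Among the coreceptors, which bring LCK to the receptor, CD4 rose under shTCF1. It read 11.65 and 11.64 in the control, 12.01 and 12.15 on the shGATA3-labelled arrays and 12.55 and 12.53 on the shTCF1 arrays. The 3 groups were in steps with no overlap. The rise was 1.86-fold with shTCF1 (0.89 ± 0.10, adjusted p = 0.00774) and the call remained whichever array was left out, while 0.43 ± 0.10 with the shGATA3-labelled arrays was not called (adjusted p = 0.0606), nor was the difference between the shRNA groups (-0.46 ± 0.10, adjusted p = 0.0588). CD8A read 7.60 and 8.22 in the control, 6.84 and 6.94 on the shGATA3-labelled arrays and 6.69 and 7.68 on the shTCF1 arrays, a spread between replicates of up to 0.70 (SD), and was not called (-1.02 ± 0.35 and -0.73 ± 0.35). A dimmer probe of CD8A, well above background on 5 arrays, lay the other way (0.14 and 0.26) and was not called either. CD8B read 5.91 and 4.74, 4.64 and 4.87, and 4.75 and 4.24 in the same order, with overlapping groups and 1 shTCF1 array below background. A dimmer probe of CD8B, chosen after its values were seen, was well above background in the control and on neither shTCF1 array. It was at least 2.42-fold lower there (adjusted p = 0.0123). The brightest probe of CD8B was not called (-0.57 with the shGATA3-labelled arrays and -0.83 with shTCF1, adjusted p = 0.387 and 0.183). The tested probes of CD8B thus differed in size and call but not in direction.

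CD2, the adhesion receptor that binds CD58 on the partner cell and costimulates the T cell, had the largest called decrease of the set with shTCF1 among the brightest probes. It read 11.89 and 11.90 in the control, 11.41 and 11.45 on the shGATA3-labelled arrays and 9.69 and 9.73 on the shTCF1 arrays. The 3 groups were far apart relative to their replicates. With shTCF1 CD2 was 4.55-fold lower (-2.19 ± 0.09, adjusted p = 0.00199) and 3.29-fold lower than on the shGATA3-labelled arrays (adjusted p = 0.00107), and both calls remained whichever array was left out. With the shGATA3-labelled arrays it was 1.38-fold lower than in the control (-0.47 ± 0.09, adjusted p = 0.0439), a call lost in all 6 fits that left out an array (adjusted p from 0.0689 to 0.217).

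CD28, the receptor for CD80 and CD86 that gives the main costimulatory signal, read 8.63 and 8.68 in the control, 8.18 and 8.17 on the shGATA3-labelled arrays and 8.65 and 8.75 on the shTCF1 arrays. The arrays labelled shGATA3 alone were low. The difference was -0.47 ± 0.10 from control (adjusted p = 0.0472) and -0.52 ± 0.10 from shTCF1 (adjusted p = 0.0384), both lost whichever array was left out (adjusted p up to 0.206 and 0.133). A dimmer probe of CD28 gave -0.51 and -0.60 and was not called. CD6, a scavenger-type receptor that binds CD166, read 10.49 and 10.57 in the control, 10.18 and 10.36 on the shGATA3-labelled arrays and 9.85 and 9.97 on the shTCF1 arrays. It fell by 0.62 under shTCF1 (SE 0.115, adjusted p = 0.0223), a call lost without any 1 of the control or shTCF1 arrays (adjusted p up to 0.109). CD5, an inhibitory receptor of thymocytes, CD7 and the tumour necrosis factor receptor family member CD27 were not called in any comparison, with differences from control of -0.35 and 0.17, -0.03 and 0.23, and 0.13 and -0.50 on the shGATA3-labelled arrays and shTCF1.

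The CD1 family, which presents lipids and marks cortical thymocytes, lay near background. CD1B read 3.73 and 3.57 in the control, 5.66 and 5.70 on the shGATA3-labelled arrays and 2.95 and 3.07 on the shTCF1 arrays. It was well above background on the shGATA3-labelled arrays and on no other, at least 2.80-fold higher than in the control (adjusted p = 0.00169) and at least 2.75-fold higher than with shTCF1 (adjusted p = 0.00054). Such a bound sets the bright group against the dimmest probes still well above background on the dim arrays, and it holds only for the VSN values. Under the other scalings the log2 difference of CD1B from shTCF1, 2.67, was between 0.69 and 3.70. Both calls remained whichever array was left out, but the measured log2 difference from control, 2.03, was between 0.63 and 2.65 under the other 3 scalings. The control and shTCF1 arrays were both below background, so that their call (adjusted p = 0.0185) has no fold. CD1A read 3.95 and 4.41 in the control, 5.07 and 4.48 on the shGATA3-labelled arrays and 3.60 and 3.17 on the shTCF1 arrays. It too was well above background on the shGATA3-labelled arrays alone, at least 1.47-fold higher than with shTCF1 (adjusted p = 0.0388), a call lost without any 1 of those 4 arrays (adjusted p up to 0.147), and its log2 difference from shTCF1, 1.39, was between 0.29 and 1.91 under the other scalings. CD1A and CD1B passed the filter only through the group where they were high. CD1D was not called, and CD1C and CD1E were below background.

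**Figure D2:**
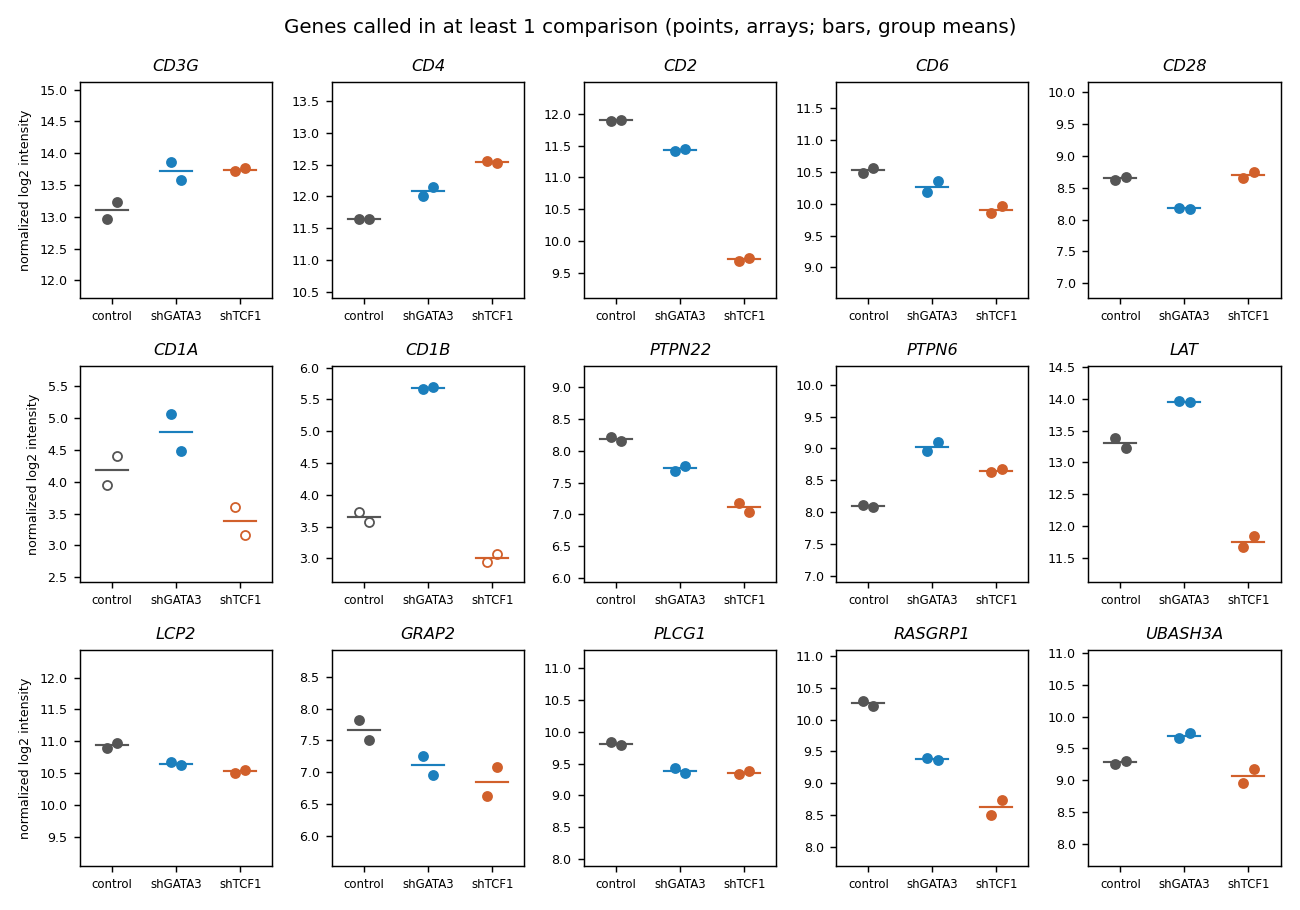
Normalized log2 intensity (y axis, of the same span in every panel) of the 15 genes called in at least 1 comparison, with 1 point per array and a bar at each group mean; open points mark groups not well above background. LAT is high on the shGATA3-labelled arrays and low on the shTCF1 arrays, whereas CD2, RASGRP1 and PTPN22 step down from control to shTCF1.

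The kinases that start the cascade were not called. LCK read 13.85 and 13.83 in the control, 14.02 and 14.23 on the shGATA3-labelled arrays and 13.66 and 13.81 on the shTCF1 arrays, with differences from control of 0.29 ± 0.12 (adjusted p = 0.192) and -0.10 ± 0.12 (adjusted p = 0.569). ZAP70 read 13.86 and 13.77, 13.82 and 13.82, and 14.03 and 14.06 in that order, the shTCF1 arrays lying slightly above the rest (0.23 ± 0.10, adjusted p = 0.16). A dimmer probe of ZAP70 lay the other way, at -0.28 with the shGATA3-labelled arrays and -0.34 with shTCF1, and was not called either (adjusted p = 0.243 and 0.134). FYN, the other Src-family kinase of T cells, and CSK, which restrains both, were also not called (0.44 and 0.25, and 0.10 and 0.0015).

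Of the phosphatases, PTPN6 was called higher in both comparisons with control and PTPN22 lower with shTCF1. PTPN6 (SHP-1), which dephosphorylates proximal kinases, read 8.11 and 8.09 in the control, 8.95 and 9.102 on the shGATA3-labelled arrays and 8.63 and 8.68 on the shTCF1 arrays. Both shRNA groups were higher than control, by 1.91-fold (0.93 ± 0.10, adjusted p = 0.00995) and 1.47-fold (0.55 ± 0.10, adjusted p = 0.0225), and the direct difference of 0.38 was not called (adjusted p = 0.0967). Leaving out either control array ended both calls (adjusted p up to 0.0632 and 0.113), as did leaving out the second array labelled shGATA3 for the first call and either shTCF1 array for the second. PTPN22, which acts with CSK on LCK, read 8.23 and 8.16 in the control, 7.68 and 7.76 on the shGATA3-labelled arrays and 7.19 and 7.04 on the shTCF1 arrays. The groups stepped down without overlap. PTPN22 was 2.11-fold lower with shTCF1 (-1.08 ± 0.11, adjusted p = 0.0063), a call that remained whichever array was left out and that its dimmer probe also gave (-1.05, adjusted p = 0.035). With the shGATA3-labelled arrays it was not called (-0.47 ± 0.11, adjusted p = 0.0581), and the direct difference (0.61 ± 0.11, adjusted p = 0.0306) was lost whichever array was left out (adjusted p up to 0.115).

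PTPRC (CD45), the phosphatase that keeps LCK ready for activation, had 4 probes that disagreed. Its brightest probe was not called (-0.83 ± 0.19 with the shGATA3-labelled arrays, adjusted p = 0.0617; -0.14 with shTCF1). The next 2 probes, named after their values were seen, were lower under both shRNAs, by -0.70 and -0.91 with the shGATA3-labelled arrays (adjusted p = 0.0305 and 0.0108) and by -0.64 and -0.77 with shTCF1 (adjusted p = 0.0233 and 0.0108). The dimmest gave -0.05 and -0.14 and was not called.

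LAT, the membrane scaffold that ZAP70 phosphorylates, moved in opposite directions. It read 13.38 and 13.22 in the control, 13.96 and 13.95 on the shGATA3-labelled arrays and 11.67 and 11.84 on the shTCF1 arrays. The arrays labelled shGATA3 were the highest and the shTCF1 arrays the lowest by a wide margin. LAT was 2.91-fold lower with shTCF1 than in the control (-1.54 ± 0.115, adjusted p = 0.00388) and 4.58-fold lower than on the shGATA3-labelled arrays (2.20 ± 0.115, adjusted p = 0.000978), and both calls remained whichever array was left out. It was 1.58-fold higher on the shGATA3-labelled arrays than in the control (0.66 ± 0.115, adjusted p = 0.0314), which was lost without any 1 of those 4 arrays (adjusted p up to 0.14).

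GRAP2, LCP2 and PLCG1, which gather on LAT, were called lower with shTCF1, and the adaptors VAV1, NCK1 and SH2D1A were not called. GRAP2 (GADS), the bridge between LAT and SLP-76, read 7.82 and 7.51 in the control, 7.26 and 6.96 on the shGATA3-labelled arrays and 6.62 and 7.08 on the shTCF1 arrays. It fell by 0.82 under shTCF1 (SE 0.20, adjusted p = 0.0456). LCP2 (SLP-76) read 10.90 and 10.97 in the control, 10.67 and 10.62 on the shGATA3-labelled arrays and 10.50 and 10.55 on the shTCF1 arrays, and fell by 0.40 (SE 0.10, adjusted p = 0.0417). PLCG1, the phospholipase that makes the second messengers, fell by 0.45 under shTCF1 (SE 0.10, adjusted p = 0.0314). Its values were 9.83 and 9.79 in the control, 9.42 and 9.35 on the shGATA3-labelled arrays and 9.34 and 9.38 on the shTCF1 arrays, so both shRNA groups lay equally far down, although the former was not called (-0.43 ± 0.10, adjusted p = 0.0576).

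In each of GRAP2, LCP2 and PLCG1 all 4 shRNA arrays were below both control arrays, and the direct comparison of the shRNA groups was not called (0.26 ± 0.20, 0.12 ± 0.10 and 0.03 ± 0.10). Their calls with shTCF1 were near the threshold: those of GRAP2 and LCP2 were lost whichever array was left out (adjusted p up to 0.185 and 0.197), and that of PLCG1 without any 1 of the control or shTCF1 arrays (adjusted p up to 0.165). VAV1, NCK1 and SH2D1A (SAP) differed from control by between -0.25 and 0.44. THEMIS, a thymocyte signalling protein, was below background on all arrays.

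RASGRP1, the exchange factor that turns on Ras when diacylglycerol is made, read 10.29 and 10.22 in the control, 9.39 and 9.37 on the shGATA3-labelled arrays and 8.498 and 8.74 on the shTCF1 arrays. The groups stepped down in that order with no overlap. RASGRP1 was 3.11-fold lower with shTCF1 (SE of the log2 difference 0.12, adjusted p = 0.00384), a call that remained whichever array was left out. It was 1.83-fold lower on the shGATA3-labelled arrays (-0.87 ± 0.12, adjusted p = 0.0165), lost without any 1 of those arrays or the control arrays (adjusted p up to 0.0987). The difference between the shRNA groups was 0.76 ± 0.12 (adjusted p = 0.0221), lost without either array labelled shGATA3 or the first shTCF1 array (adjusted p up to 0.0907).

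The remaining enzymes of the chain, PRKCQ, ITPKB, MALT1 and BCL10, and the transcription factors NFATC1, NFATC2 and NFATC3 were not called, with differences from control between -0.34 and 0.14 on the shGATA3-labelled arrays and between -0.15 and 0.48 on the shTCF1 arrays. A dimmer probe of NFATC1, named after its values were seen, was lower under shTCF1 (-0.90, adjusted p = 0.036) where the brightest was not (0.01). Of the inhibitors and the lineage regulator, UBASH3A (STS-2), which restrains ZAP70 signalling, read 9.26 and 9.30 in the control, 9.67 and 9.74 on the shGATA3-labelled arrays and 8.96 and 9.17 on the shTCF1 arrays. The arrays labelled shGATA3 lay above and the shTCF1 arrays below the control. Only the direct difference was called (0.63 ± 0.11, adjusted p = 0.0332), and it was lost whichever array was left out (adjusted p up to 0.122). A dimmer probe of UBASH3A gave 0.49 for it, which was not called, and was lower under shTCF1 than in the control (-0.57, adjusted p = 0.0497). On that probe the shGATA3-labelled arrays overlapped the control (-0.08, adjusted p = 0.762). CBLB, a ubiquitin ligase, and BCL11B, the factor that secures T-cell identity, were not called (0.25 and 0.33, and -0.07 and -0.26).

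**Figure D3:**
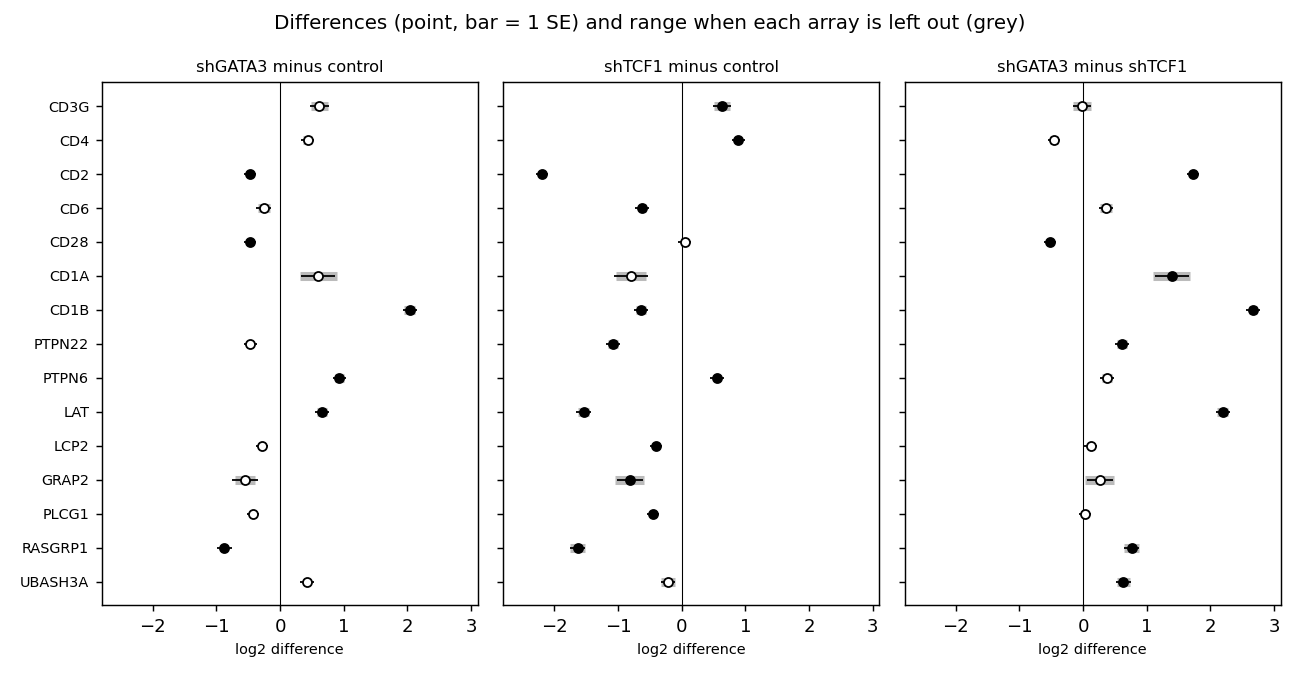
Log2 differences of the 15 called genes in the 3 comparisons (x axis), with 1 SE (black bar) and the range over the 6 fits that each leave out 1 array (grey bar). Filled points passed an adjusted p of 0.05 and open points did not. The ranges of CD2, LAT and RASGRP1 with shTCF1 stay well below 0.

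A further 59 genes of the pathway were drawn up beside the set: 53 kinases, adaptors, branch enzymes, negative regulators and costimulatory receptors, and 6 genes that the receptor induces. Of these 50 were tested, and 7 were called with the shGATA3-labelled arrays (2 higher, 5 lower), 11 with shTCF1 (2 higher, 9 lower) and 6 between the shRNA groups (4 higher, 2 lower on the shGATA3-labelled arrays), or 14%, 22% and 12%, to be read beside the same 6.93%, 16.3% and 6.6% of all named genes. Their median differences were -0.14, -0.15 and 0.04. These genes, too, were chosen with earlier results of these data known.

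With the shGATA3-labelled arrays the largest called differences among them, from control and from shTCF1, were those of PAG1 and SLA. PAG1, the anchor that recruits CSK to LCK, read 5.93 and 6.001 in the control, 4.59 and 3.99 on the shGATA3-labelled arrays, 1 of which was below background, and 6.59 and 6.49 on the shTCF1 arrays. It fell by 1.67 on the shGATA3-labelled arrays (adjusted p = 0.0124) and lay 2.25 lower there than with shTCF1 on the log2 scale (adjusted p = 0.00386). Without the first control array the first call ended (adjusted p up to 0.0539), and under the other scalings that difference was between -1.89 and -0.59. A dimmer probe of PAG1 was not called there against control (-0.58, adjusted p = 0.177), was higher with shTCF1 than in the control (1.26, adjusted p = 0.0209), where the first probe was not called, and gave -1.84 between the shRNA groups (adjusted p = 0.011). SLA (SLAP), an adaptor that targets receptor chains for degradation, read 9.33 and 9.36 in the control, 8.30 and 8.15 on the shGATA3-labelled arrays and 9.94 and 10.11 on the shTCF1 arrays. It was lower on the former (-1.12, adjusted p = 0.00806) and higher on the latter (0.68, adjusted p = 0.0175) than in the control, with a direct difference of -1.80 (adjusted p = 0.00138); of these the second was lost without either control array or the second shTCF1 array (adjusted p up to 0.0964).

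UBASH3B (STS-1), the relative of UBASH3A, was higher on the shGATA3-labelled arrays than in the control (0.77, adjusted p = 0.02) and than with shTCF1 (0.62, adjusted p = 0.0351), but these were 0.40 and 0.22 at the lowest under the other scalings. ICOS, a costimulatory receptor, was higher there as well, by 0.85 (adjusted p = 0.0271) and 0.86 (adjusted p = 0.0243). FYB1 (ADAP), the adaptor that couples SLP-76 to integrins, fell in both groups, by 1.06 (adjusted p = 0.0481) and 0.87 (adjusted p = 0.0481). Each of these calls held under 1 of the 3 other scalings, where the differences shrank to as little as -0.46 and -0.39. With shTCF1 the inositol trisphosphate receptor ITPR2 (-0.99, adjusted p = 0.0117) and the phosphoinositide 3-kinase subunits PIK3R1 (-0.97, adjusted p = 0.041) and PIK3CD (-0.85, adjusted p = 0.0126) were lower, while the calcium channel ORAI1 was higher (0.74, adjusted p = 0.0137). The call of PIK3R1 held under 1 of the 3 other scalings. The probes of ITPR2 disagreed, a dimmer one above background on all 6 arrays giving -0.07 with shTCF1 (adjusted p = 0.731). A dimmer probe of PIK3CD gave -0.68 with shTCF1 and was not called (adjusted p = 0.0847). PIK3CD was also called lower on the shGATA3-labelled arrays (-0.69, adjusted p = 0.0337), where its dimmer probe was not (-0.41, adjusted p = 0.29). The direct difference of PIK3CD was not called (0.16, adjusted p = 0.49). The kinase PAK1 was higher on the shGATA3-labelled arrays than with shTCF1 (0.75, adjusted p = 0.015). Except for the 2 comparisons of SLA that included the shGATA3-labelled arrays and the direct one of PAG1, each of these calls was lost in at least 1 fit that left out an array.

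Of the 6 genes that the receptor induces, EGR1 alone was tested and was not called (0.16 and 0.24 from control), and EGR2, EGR3, NR4A1, IL2RA and IL2 were on 0 of 6 arrays well above background. CD69, the early activation marker in the set, was likewise below background on every array. The kinase TEC was below background as well.

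**Figure D4:**
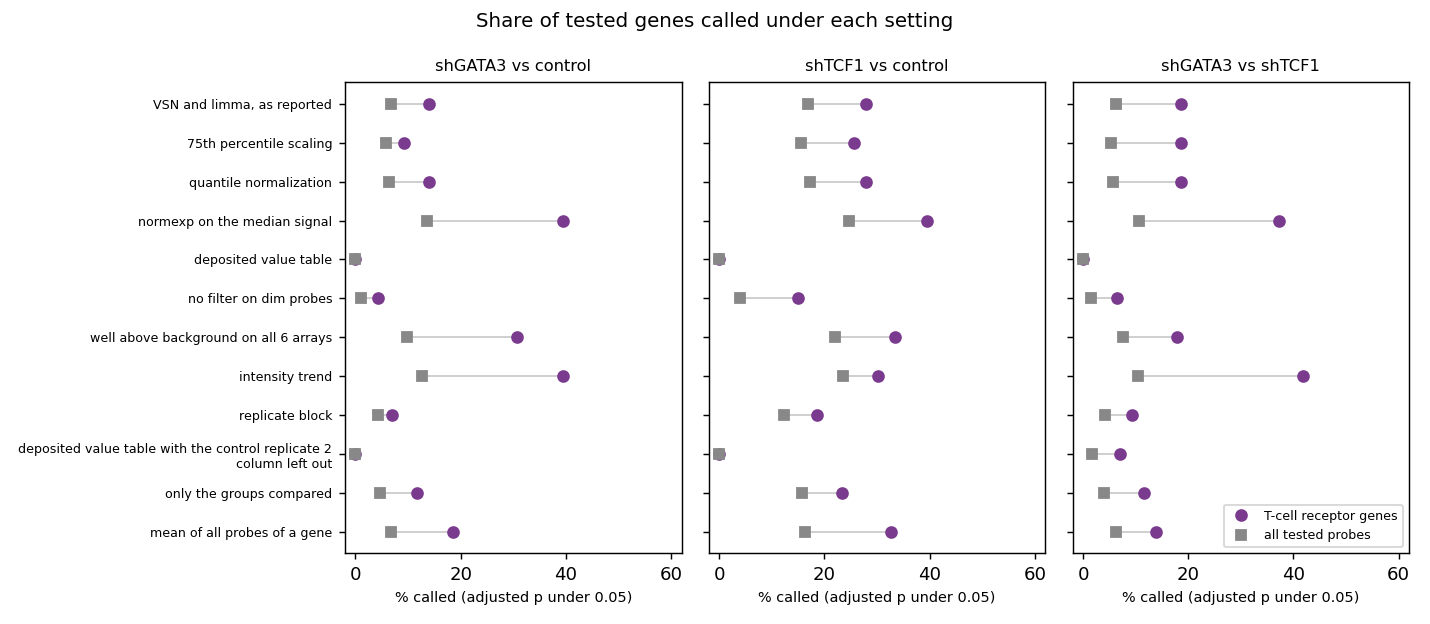
Share of tested genes called (x axis, percent) under each way of processing the same arrays, for the T-cell receptor genes (circles) and for all tested probes (squares). The share among the T-cell receptor genes was 14.0% beside 6.84% of probes, 27.9% beside 16.9% and 18.6% beside 6.18% in the 3 comparisons as reported, and both shares were 0 for the deposited value table.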

How the data were processed

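RNA of 6 samples (3 groups of 2, from the sample titles) was hybridised to custom 1-colour Agilent arrays. Per the file headers, Agilent Feature Extraction 10.7.1.1 (the labels give 9.1) made the deposited intensity values by subtracting and detrending background within each array, with no scaling between arrays. The same files hold raw median intensities of spot and background, used for 1 alternative. The authors also deposited a table of log2 values, normalized with VSN by their methods, whose scale and centring are not given with it. Column medians were 4.99 and 5.11 (control), 4.94 and 5.00 (shGATA3), and 4.98 and 4.94 (shTCF1). It was used only as an alternative, because the column named control replicate 2 followed no array (highest r = 0.832) and the columns of control replicate 1 and shGATA3 replicate 1 followed the other array of their group more closely than their own (r = 0.996 beside 0.985, and 0.994 beside 0.986).

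Control spots and 71 probes marked as outliers were left out, spots of a probe were averaged, and intensities were normalized by the VSN model, rewritten in R 4.3.3 and tested on simulated data (trimming quantile 0.9, 7 iterations, 5 strata). A probe was tested if well above background on both arrays of a group (31134 of 57105). Probes were named through their accession and the RefSeq table of GRCh38.p14 (25729 of 57176). No coordinates from it were used for probes, as the headers name hg19. Limma 3.58.1 (lmFit, eBayes, two-sided) was fitted to the 6 arrays with no term but group (3 residual and 2.97 prior degrees of freedom), p values were adjusted by Benjamini-Hochberg over all tested probes, and calls were made at an adjusted p under 0.05. With 2 arrays a group the smallest two-sided p of an exact permutation test is 0.333, and the calls rest on the spread pooled over probes. The study names 2 independent experiments for the comparisons, the labels only 2 replicates, and p values measure the spread between these samples. The number of arrays limits the precision.

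Values on every array are given for genes called in at least 1 comparison and for CD3D, CD3E, CD3G, CD247, PTCRA, CD4, CD8A, CD8B, LCK, ZAP70 and LAT. Of the other pathway genes, the 5 called genes with the largest difference in each comparison are named. A result on a cell type marker and one on a pathway kinase are not reported here. The genes and lists were chosen with earlier results of these data known. The 17 alternatives covered scaling, background, filter, probe choice, an intensity trend, a replicate block, the groups in the fit, the deposited table, and each array left out.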

Additional observations from a re-analysis of the deposited data

Results flagged for a closer look

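Between the shRNA groups, 8 of the T-cell receptor genes were called in limma, and these differences drew attention to them. On the log2 scale, shGATA3 minus shTCF1, they were 2.20 for LAT (adjusted p = 0.000978), 1.72 for CD2 (adjusted p = 0.00107), 0.76 for RASGRP1 (adjusted p = 0.0221), 0.63 for UBASH3A (adjusted p = 0.0332), 0.61 for PTPN22 (adjusted p = 0.0306) and -0.52 for CD28 (adjusted p = 0.0384). CD1B and CD1A were below background with shTCF1 and in the control and passed the filter only through the arrays labelled shGATA3, so that only a bound can be given. On the VSN values they were at least 2.75-fold and at least 1.47-fold higher on those arrays. Under the other scalings the measured log2 differences were as low as 0.69 (CD1B) and 0.29 (CD1A), which is below these bounds. The arrays of LAT and UBASH3A labelled shGATA3 lay above both control arrays and their shTCF1 arrays below both. For UBASH3A this held for the brightest probe. On a dimmer probe the shGATA3-labelled arrays overlapped the control (-0.08). For CD28 the control and shTCF1 arrays overlapped. The calls of LAT, CD2 and CD1B remained whichever array was left out, and the other 5 were lost in at least 1 such fit.

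Of the other pathway genes, the 5 named for the same comparison differed by -2.25 (PAG1), -1.80 (SLA), 0.86 (ICOS), 0.75 (PAK1) and 0.62 (UBASH3B), of which those of PAG1 and SLA remained whichever array was left out.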

How the results depend on the processing

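Of 45 called differences of named genes, between 22 and 43 kept their direction and call under each scaling, filter, trend, probe or grouping alternative, and all 39 that could be tested again kept theirs among probes above background on each of the 6 arrays. The deposited value table kept 0 and, without its control replicate 2 column (an alternative chosen after seeing the data), 6. Leaving out an array kept 19 to 26; a group left with 1 array is then assumed to vary like the others. Calls of T-cell receptor genes, reported as 6 (arrays labelled shGATA3 against control), 12 (shTCF1 against control) and 8 (between shRNA groups), became 17, 17 and 16 with normexp on the median signal (9 higher and 8 lower, 8 and 9, 10 and 6), 17, 13 and 18 with an intensity trend, 2, 7 and 3 with no filter on dim probes, 0 throughout in the deposited table, and 0, 0 and 3 in it without the control replicate 2 column. They were 12 among probes above background on each of the 6 arrays in the comparison of shGATA3 with control, and 5 with only the groups compared between the shRNA groups. Without 1 array they ranged from 1 to 5, 5 to 10 and 3 to 5. Calls of the other pathway genes, reported as 7, 11 and 6, became 14, 18 and 12 with normexp, 14, 17 and 13 with a trend, 1 and 3 with no filter (shGATA3 with control, and between the shRNA groups), 11 for shGATA3 with control among probes above background on each of the 6 arrays, 0 in the deposited table and 0, 0 and 2 without its control replicate 2 column. Without 1 array they ranged from 1 to 5, 1 to 13 and 2 to 4. Calls over all tested probes moved the same way, so such changes were not confined to the listed genes. Reported as 2130, 5274 and 1925, they became 4233, 7659 and 3318 with normexp, and 3912, 7343 and 3273 with a trend. With no filter they were 560, 2272 and 901. Among probes above background on each of the 6 arrays they were 2677 for shGATA3 with control. With only the groups compared they were 1214 between the shRNA groups. In the deposited table calls over all tested probes were 0 in limma as well, with 1814, 2652 and 1642 at an unadjusted p under 0.05.

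The replicate numbers are shared by the groups, but same-numbered arrays did not deviate together (correlations of deviations -0.0398, -0.00982 and 0.0488). The labels do not say whether same-numbered arrays came from the same experiment, and these correlations cannot settle it. With the replicate block 3, 8 and 4 T-cell receptor genes were called, beside 4.27%, 12.4% and 4.13% of all tested probes. All arrays were on 1 slide and 1 scan, so the slide block was not run.

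In the deposited value table the direction of called differences turned for CD2 (2.69) and RASGRP1 (1.63) with shGATA3 and CD2 (0.85), GRAP2 (0.80), ITPR2 (1.31), LCP2 (2.61), PLCG1 (1.47) and RASGRP1 (0.74) with shTCF1, and the cause was not tested. Differences that were not called turned there for CD247 (2.14), GRAP2 (1.12), ITPR2 (1.75), LCP2 (2.71), ORAI1 (-0.081) and PLCG1 (1.45) with shGATA3, CD28 (-0.39), CD3D (-0.15), LCK (0.61), PAK1 (0.67), PTCRA (-0.051) and UBASH3A (1.59) with shTCF1 and PLCG1 (-0.027) between the shRNA groups. Without its control replicate 2 column ZAP70 (-0.084) with shGATA3, CD247 (-0.16), CD28 (-0.0045) and CD3D (-0.20) with shTCF1 and PLCG1 (-0.027) between the shRNA groups turned. With 75th percentile scaling GATA3 (0.00047) with shGATA3 and ICOS (0.038) with shTCF1 turned. With quantile normalization ZAP70 (-0.077) with shGATA3 and CD3D (-0.12) and ICOS (0.067) with shTCF1 turned. With normexp ZAP70 (-0.0501) with shGATA3 and CD3D (-0.21) and ICOS (0.011) with shTCF1 turned. With the mean of all probes of a gene ZAP70 (-0.14) with shGATA3 and ZAP70 (-0.057) with shTCF1 turned. When 1 array was left out, uncalled differences that turned ranged as follows: CD8B from -1.16 to 0.0103, ZAP70 from -0.047 to 0.047 with shGATA3, CD28 from -0.0051 to 0.096, CD3D from -0.39 to 0.44, ICOS from -0.19 to 0.15 with shTCF1, CD3G from -0.16 to 0.12, CD8A from -0.79 to 0.21, FYB1 from -0.45 to 0.069, PLCG1 from -0.012 to 0.064 between the shRNA groups.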
